A study of Mus musculus with 17 samples.

Results

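RNA of splenic regulatory T cells (Tregs) from Nfkbid knockout mice was compared with that of NOD controls, using 11 of the 17 libraries of the series. The members were the 5 knockout and the 6 control libraries, as their titles name them. All mice were on the NOD background, a strain that develops autoimmune diabetes, and all carried a Foxp3-GFP reporter, with which Tregs were sorted from the spleen. The knockout group was NOD-Nfkbid-KO.Foxp3-GFP and the control group NOD.Foxp3-GFP, each library being a pool of 2 samples. The remaining 6 libraries, from NOD-60A.Foxp3-GFP mice that overexpress Nfkbid, came from 1 sample each and shared the controls. They served to estimate the spread in the same fit and are given only where they bear on a knockout value. The labels used here give no age and no treatment, the knockout allele and the number of founder lines are not given in the sources used here, and the batch label is the same for every library. Nothing in the labels says that pools came from separate cohorts, so each p-value describes only how far these libraries vary.

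Nfkbid encodes an atypical nuclear IkB protein, which binds NF-kB subunits at DNA and can raise or lower the transcription of their target genes. In T cells it is known as a regulator of Foxp3, the transcription factor that defines Tregs, and of cytokine genes. Tregs restrain other lymphocytes through surface molecules, cytokines and competition for growth factors, and in NOD mice they delay diabetes.

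A limit of the deposited table bears on every name below. Many rows of the table did not hold the counts of the gene they name, and the error grew with distance from the start of each autosome. Of ribosomal and proteasome genes, which all cells transcribe, 4 of 4 in the first 10 Mb of a chromosome had a mean of at least 10 counts, against 18 of 65 beyond 50 Mb. Agreement between mean counts and exon overlap, as a rank correlation across rows averaged over 20 chromosomes, was best when exons were moved by 0.45 kb per Mb from an origin at 3 Mb (a correlation of 0.50, against 0.40 unmoved). Names are therefore read as genes only for the mitochondrial genome and for genes lying within the first 10 Mb of a chromosome. Even there a shift of up to about 3 kb remains, so the share of exon bases that stay on the gene's own exons after the shift is given beside each named gene below, singly or in a closing sentence. All other rows are called rows, and on the autosomes their names say nothing certain about the transcript counted. On chromosome X the correlation was highest with exons unmoved (0.57), but X rows beyond 10 Mb are also given only as rows.

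Across 9986 rows tested, 88 were higher and 101 lower in knockout Tregs at an adjusted p under 0.05 (edgeR quasi-likelihood test with Benjamini-Hochberg adjustment), which is 1.89% of rows (0.881% higher and 1.01% lower). The change exceeded 1 on the log2 scale for 40 of the higher and 60 of the lower rows. Rows at 0 in every knockout library were not left out of this count. The 5 knockout and 6 control values did not overlap in 117 of the 189 called rows, where 2.74% of all rows did not overlap. The median log2 fold change over all rows was -0.02. An unadjusted p under 0.05 was reached by 22.4% of rows. Near chromosome starts 36 of 821 rows were called (4.38%), of which 22 lay on chromosome 14. Among the 761 rows near chromosome starts outside chromosome 14, 14 were called (1.84%), with 9 higher and 5 lower, and 10 of these are named genes.

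The knockout libraries fell into visibly different states, and this touches each result below. Knockout replicates 2, 3 and 5 had 13597, 13466 and 13793 rows above 0, while replicates 1 and 4 had 15024 and 15908. Control libraries had 15781 to 17352. The knockout mean was 14358 ± 1065 rows (SD, n = 5) and the control mean 16423 ± 586 (SD, n = 6), a difference of -2065 rows (exact 2-sided permutation test, p = 0.013; the smallest p possible is 0.00433). With every library thinned to the smallest total the difference was -1931 rows (exact permutation p = 0.00866), and without replicates 2, 3 and 5 it was -957 rows (exact permutation p = 0.214, where 2 libraries against 6 cannot give a p under 0.0714). Mitochondrial counts made up 22.0, 25.6, 25.3, 22.5 and 28.2% of the total for knockout replicates 1 to 5. Controls had at most 24.0%, with a mean of 21.4 ± 1.57% (SD, n = 6) against 24.7 ± 2.49% (SD, n = 5) in the knockout (exact permutation p = 0.0216). Without replicates 2, 3 and 5 the difference in share was 0.873 percentage points (exact permutation p = 0.357, again with a smallest p of 0.0714), against 3.30 with them. Library totals were 3.13 to 4.73 M counts over all groups, and 3 counts in a knockout or control library corresponded to 0.624 to 0.982 CPM, the unit of all levels below, in which counts are scaled to a normalized library size.

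**Figure D1:**
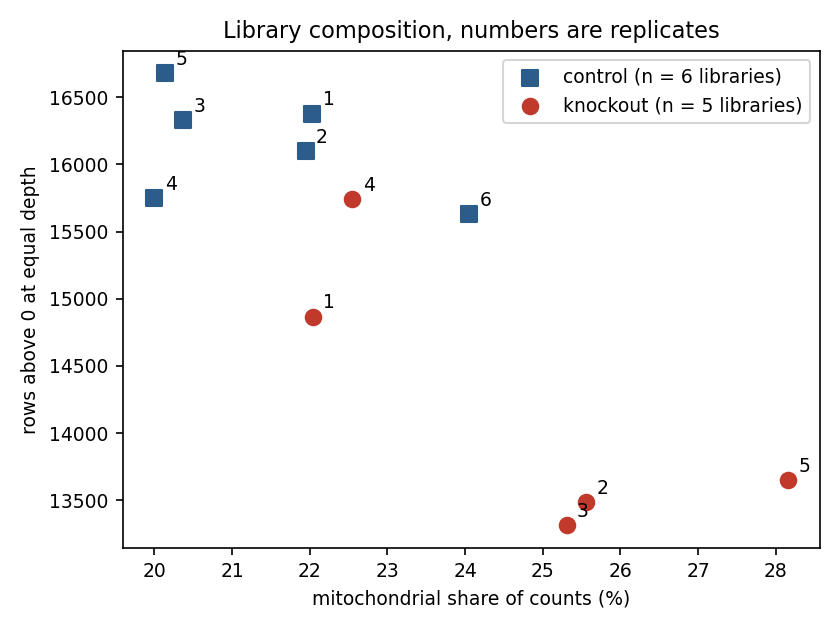
Each point is 1 library, with the mitochondrial share of its counts (%) on the x axis and the number of rows above 0 after thinning to equal depth on the y axis. Knockout replicates 2, 3 and 5 lie at 25.3 to 28.2% and 13314 to 13650 rows, apart from replicates 1 and 4 and from the 6 controls.

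Expression varied more among knockout than among control libraries. Over the 3512 rows whose average log2 CPM was 5 or more, the median SD of log2(CPM + 1) was 0.30 in the knockout, 0.15 in the control and 0.21 in the transgenic group. The SD was larger in the knockout than in the control group for 85.1% of these rows. Rows lying more than 1 log2 unit from the control mean numbered 24, 458, 96, 27 and 349 in knockout replicates 1 to 5, against 1 to 12 in a control library set against the other controls. The first principal component over the 11 libraries held 62.6% of the variance and placed replicates 2, 3 and 5 at 33.0, 11.6 and 28.7. Replicates 1 and 4 lay on it at -6.13 and -7.28, inside the range of the controls (-12.5 to -5.49). The second component held 11.6% and placed replicates 1 and 4 at 12.7 and 12.1, above the controls (-8.20 to -0.80), with replicate 3 at 6.66 between them and replicates 2 and 5 within the control range.

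The rows called higher carried a similar order within the knockout group, and those called lower less so. Replicate 2 was the most extreme knockout library in 45 of the 88 higher rows and replicate 5 in 22, while replicate 1 or 4 was nearest to the controls in 73. Of the 92 lower rows not at 0 in all knockout libraries, replicate 2 was the most extreme in 32, replicate 5 in 21, replicate 3 in 18 and replicate 1 in 15, and replicate 1 or 4 was nearest to the controls in 52. Replicates 1 and 4 both lay outside the control range, on the called side, in 131 of the 189 called rows. Both libraries were part of the fit that called these rows, so this count is not separate support for the calls. When replicates 2, 3 and 5 were left out, 10 rows were higher and 33 lower, of which 8 and 27 were among the 88 and 101. When replicates 1 and 4 were left out instead, an alternative chosen after seeing the data, 1534 were higher and 1785 lower. DESeq2 called 305 higher and 268 lower on all libraries. The low numbers of detected rows and the mitochondrial shares of replicates 2, 3 and 5 moved with these counts, and their part in the results was not tested.

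**Figure D2:**
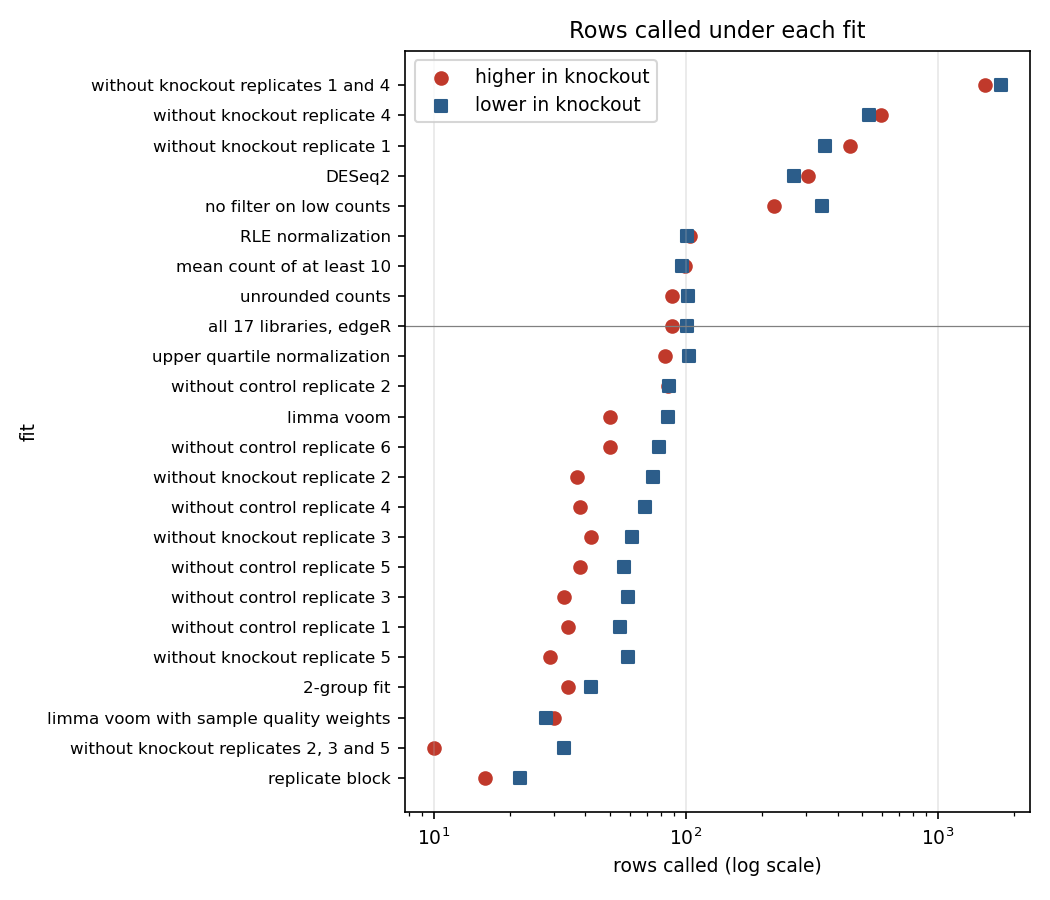
Each line is a fit, with the number of rows called higher (circles) and lower (squares) in knockout on a log scale. The horizontal line marks the fit of all 17 libraries, with 88 and 101 calls, and the fit without knockout replicates 1 and 4 lies at 1534 and 1785.

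The Nfkbid row could not check the genotype labels. Nfkbid lies at chr7:30421732-30428746 (GRCm38, plus strand), the estimated shift there is 12.3 kb, and none of its moved exon bases stayed on its own exons. The row held 8.31, 2.93, 5.70, 2.24 and 4.58 CPM in knockout replicates 1 to 5. Controls ran from 3.09 to 5.41 CPM with a median of 4.80, so the groups overlapped, and the log2 fold change was 0.06 (SE 0.30, adjusted p = 0.91, edgeR). The moved exons of the nearby Tyrobp row lay in part on Nfkbid, with 120 of 667 bases on its exons. That row held 10.1 to 14.5 CPM in knockout, 6.47 to 13.3 CPM in control and 421 to 795 CPM in transgenic libraries. Transgenic exceeded control there by 6.04 on the log2 scale (adjusted p = 2.7e-15, edgeR), whereas knockout was not below control (0.38, SE 0.20, adjusted p = 0.27, edgeR). Whether the Tyrobp row counts Nfkbid reads was not tested. Foxp3, at chrX:7573644-7595245, was in register, since rows of chromosome X needed no shift. Its level was 343, 258, 356, 322 and 285 CPM in knockout replicates 1 to 5 and 326 to 370 CPM in controls, with a median of 343. All 11 libraries thus held the transcript that defines Tregs. The log2 fold change of Foxp3 was -0.15 (SE 0.09, adjusted p = 0.35, edgeR), and the groups overlapped. Its annotated exons overlap those of Ccdc22 in part, so reads there cannot be told apart if the counting ignored strand.

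Penk, the gene of proenkephalin, the precursor of opioid peptides that Tregs can release, rose in knockout Tregs. It lies at chr4:4133531-4138819 (minus strand), and 39.9% of its exon bases stayed on its own exons after the shift of 0.51 kb. Its level was 128, 228, 179, 120 and 260 CPM in knockout replicates 1 to 5. Controls had 59.4 to 86.8 CPM with a median of 65.8. All 5 knockout libraries exceeded all 6 controls, with replicates 1 and 4 lowest among them. The log2 fold change was 1.39 (SE 0.17, adjusted p = 3.8e-05, edgeR), and Penk stayed called in each of 29 alternatives. From replicates 1 and 4 alone the log2 fold change was 0.83 (adjusted p = 0.0028). In the transgenic group Penk ran from 409 to 537 CPM, and transgenic exceeded knockout by 1.33 on the log2 scale (SE 0.17, adjusted p = 9.8e-06).

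Map3k8 also rose. It encodes the kinase TPL-2, which is held inactive by the NF-kB precursor p105 and activates MAP kinase signalling when released. The gene lies at chr18:4331327-4353015 (minus strand), with 40.9% of exon bases on its own exons after the shift. Knockout replicates 1 to 5 had 93.3, 117, 101, 77.7 and 101 CPM. Controls had 53.1 to 66.8 CPM with a median of 56.8, so the groups did not overlap. The log2 fold change was 0.74 (SE 0.13, adjusted p = 0.0023, edgeR). Leaving out replicates 2, 3 and 5 gave 0.55 (adjusted p = 0.17), and this was the 1 alternative of 29 that ended the call. Transgenic libraries had 41.5 to 61.8 CPM, lower than knockout by -0.95 on the log2 scale (SE 0.13, adjusted p = 2.6e-05).

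Lif, which encodes leukaemia inhibitory factor, a cytokine of the interleukin-6 family, rose as well. Its gene lies at chr11:4257557-4272514 (plus strand) and kept 71.1% of exon bases on its own exons. The level was 26.0, 37.8, 28.2, 23.2 and 30.1 CPM in knockout replicates 1 to 5, against 13.7 to 22.4 CPM in controls, with a median of 18.02. The groups did not overlap, though replicate 4 lay close to the highest control. The log2 fold change was 0.69 (SE 0.16, adjusted p = 0.028, edgeR). The call was lost in 11 of 29 alternatives, with 0.45 (adjusted p = 0.54) when replicates 2, 3 and 5 were left out. Transgenic libraries had 37.3 to 56.3 CPM, higher than knockout by 0.62 on the log2 scale (adjusted p = 0.012, edgeR).

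The promoter of Lif is shown because Lif is the called gene with most of its exons in register among those that rose, and because its start region holds a match to the NF-kB consensus. It is taken from RefSeq (GRCm38.p6), chr11:4257318-4257617, plus strand, 5′ to 3′, from 250 bases before the start. Capitals mark the NF-kB consensus match, which begins 178 bases before the start, and a match to the AP-1 motif TGANTCA, which begins 228 bases before it.
Lif promoter: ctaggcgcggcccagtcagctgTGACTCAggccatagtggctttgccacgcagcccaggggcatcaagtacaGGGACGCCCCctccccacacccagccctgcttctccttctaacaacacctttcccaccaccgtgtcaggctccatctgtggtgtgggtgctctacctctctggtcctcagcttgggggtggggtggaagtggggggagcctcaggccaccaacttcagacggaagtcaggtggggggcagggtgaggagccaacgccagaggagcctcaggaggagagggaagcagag
Both motifs were searched on both strands, and these matches do not overlap each other. The NF-kB consensus matched 8.46% of the 32851 promoters of the same table and TGANTCA 7.81%. Of the 10 named genes near chromosome starts, 5 have a promoter in the table, and 2 of these, Lif and Ccr6, hold an NF-kB match. A match is a description of the letters and not of binding.

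Of the other genes that rose, Rhod, a small GTPase, kept 40.8% of exon bases in register and had 24.4, 26.7, 29.9, 18.4 and 25.2 CPM in knockout replicates 1 to 5 and 10.5 to 19.3 CPM in controls, with a median of 14.3. Replicate 4 lay within the control range, and the log2 fold change was 0.75 (SE 0.18, adjusted p = 0.031, edgeR). Celf2, an RNA-binding regulator of splicing with 52.9% of exon bases in register, had 1749, 2603, 2204, 1938 and 2715 CPM in knockout replicates 1 to 5. Its controls ran from 1481 to 1774 CPM with a median of 1610, so replicate 1 overlapped them, with a log2 change of 0.48 (SE 0.11, adjusted p = 0.027, edgeR). Dynlt1b and Dynlt1c, near-identical copies of a dynein light chain gene between which reads can be split, rose by 0.84 and 0.53 on the log2 scale (adjusted p = 0.029 and 0.025, edgeR). Their knockout values overlapped those of controls, and Dynlt1b kept none of its exon bases in register and Dynlt1c 40.9%. Each of these 4 genes lost its call in 10 to 12 of 29 alternatives, and none was called from replicates 1 and 4 alone (log2 fold changes 0.53 for Rhod, 0.19 for Celf2, 0.32 for Dynlt1b and 0.21 for Dynlt1c).

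Akap12 fell. It encodes a scaffold protein that holds protein kinases A and C near the membrane, lies at chr10:4266380-4359470 (plus strand), and kept 72.5% of exon bases in register. Knockout replicates 1 to 5 had 43.2, 35.2, 37.3, 41.6 and 28.8 CPM. Controls had 53.7 to 71.1 CPM with a median of 67.8, so every knockout library lay below every control. The log2 fold change was -0.83 (SE 0.13, adjusted p = 0.0013, edgeR). The call was lost in 1 of 29 alternatives, the fit without replicates 2, 3 and 5, which gave -0.65 (adjusted p = 0.11). Transgenic libraries had 37.7 to 59.4 CPM, overlapping both groups, and differed from knockout by 0.39 on the log2 scale without passing the threshold (adjusted p = 0.068, edgeR).

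Ppp6r1, a regulatory subunit of protein phosphatase 6 at chr7:4631495-4659019 (minus strand), had 264, 159, 216, 273 and 175 CPM in knockout replicates 1 to 5. Controls had 316 to 349 CPM with a median of 331, and the groups did not overlap. The log2 change was -0.61 (SE 0.15, adjusted p = 0.032, edgeR), with 30.7% of exon bases in register. Replicates 1 and 4 alone gave -0.31 (adjusted p = 0.65). The row of Ccr6, the receptor of the chemokine CCL20 on memory-type T cells, was also lower. It held 41.6, 30.6, 37.1, 34.7 and 32.1 CPM in knockout replicates 1 to 5 and 39.6 to 78.3 CPM in controls, with a median of 54.6. Replicate 1 lay within the control range, and the log2 fold change was -0.67 (SE 0.15, adjusted p = 0.027, edgeR). None of the Ccr6 exon bases stayed in register under the common shift, and the call was lost in 10 of 29 alternatives, as was that of Ppp6r1.

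**Figure D3:**
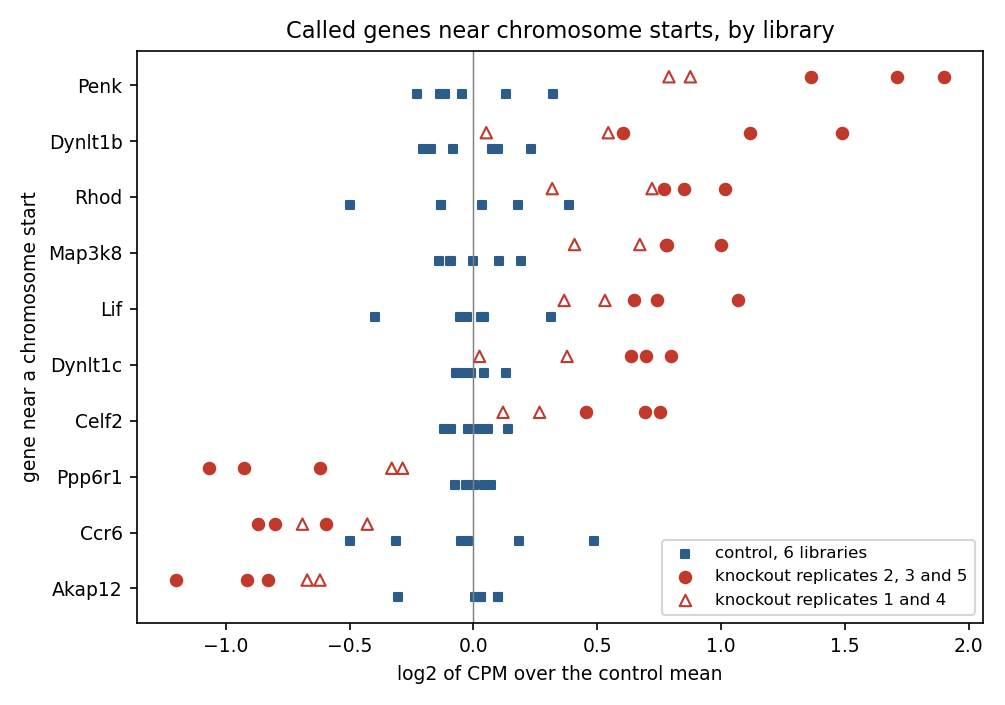
Each point is 1 library, as log2 of its CPM over the control mean of that gene, for the 10 named genes near chromosome starts that were called. For the 7 genes that rose, knockout replicates 1 and 4 (open triangles) lie nearest to the controls (squares), and for Penk, Map3k8, Lif, Akap12 and Ppp6r1 no knockout value overlaps a control value.

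The listed genes near chromosome starts that did not pass the test included several with known roles in NF-kB signalling and T cell fate. Rela, the p65 subunit of NF-kB, had a log2 fold change of -0.05 (SE 0.10). Birc2 and Birc3, ubiquitin ligases of the NF-kB pathway, had -0.11 (SE 0.12) and 0.03 (SE 0.10). Gata3 and Tox, transcription factors of T cell differentiation, had -0.18 (SE 0.11) and 0.25 (SE 0.10), and Il7r, the receptor of a survival cytokine, had -0.14 (SE 0.22). Xbp1, a transcription factor of the unfolded protein response, came close to the threshold, with 340, 566, 433, 355 and 655 CPM in knockout replicates 1 to 5 and 277 to 334 CPM in controls. Its groups did not overlap, the log2 fold change was 0.61 (SE 0.16, adjusted p = 0.051, edgeR), and replicates 1 and 4 alone gave 0.17. Dnmt3a, Crebbp and Hdac6, which modify DNA or histones, had -0.20 (SE 0.09), 0.08 (SE 0.09) and -0.10 (SE 0.15). The share of exon bases in register was low for Il7r (7.10%), Birc3 (13.99%), Gata3 (14.9%), Rela (19.4%), Tox (21.1%) and Birc2 (32.4%), so their rows can hold other reads. It was 44.4% for Xbp1, 58.9% for Crebbp, 73.7% for Dnmt3a and 100% for Hdac6. A p that misses the threshold does not show that these genes were alike in the groups.

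None of the 13 mitochondrially encoded protein genes, which make subunits of the respiratory chain or of ATP synthase, was called. Over all rows 1.89% were called. All 13 had a positive log2 fold change, with a median of 0.40 and adjusted p from 0.088 to 0.48 (edgeR). From replicates 1 and 4 alone the median was 0.05, and mt-Co3 was at -0.05. The mitochondrial share of counts given above is summed from rows that include these genes, so it moves with them by construction.

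**Figure D4:**
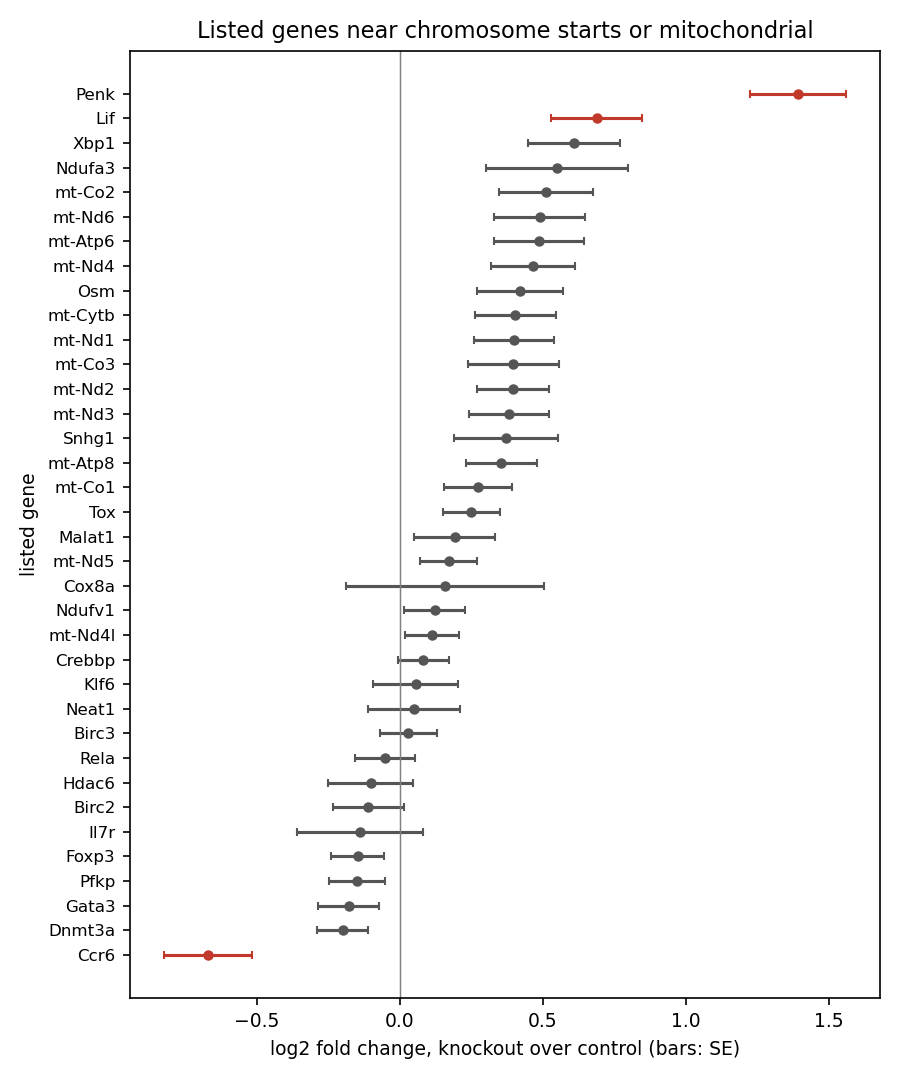
Points are log2 fold changes of knockout over control with bars of 1 SE, for listed genes near chromosome starts and mitochondrially encoded genes. The called genes Penk, Lif and Ccr6 are in red, and the mitochondrial genes lie between 0.11 and 0.51.

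The start of chromosome 14 stood apart. Of its 60 rows tested within the first 10 Mb, 22 were called (36.7%), all of them lower in knockout and all predicted genes with Gm names, between chr14:3049285 and chr14:7483762. Summed over the 22, knockout libraries held 76.0 ± 31.7 CPM (SD, n = 5; range 37.5 to 125) and controls 357 ± 89.9 CPM (SD, n = 6; range 268 to 480). Of the 22 rows, 7 were at 0 in all knockout libraries. They were called lower, but the size of their fold change cannot be read. Because the 22 rows were chosen by their call in this contrast, the gap between the knockout and control sums follows from the choice. The transgenic libraries held 3710 ± 791 CPM (SD, n = 6, range 2544 to 4908), above both other groups without overlap. Without replicates 2, 3 and 5, 13 of 68 rows tested there were called, all lower. These predicted genes include near-identical copies, between which the counting could split reads. Over the whole of chromosome 14, 8.24% of tested rows were called, against 0.568 to 3.16% on the other autosomes and 1.40% on chromosome X.

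**Figure D5:**
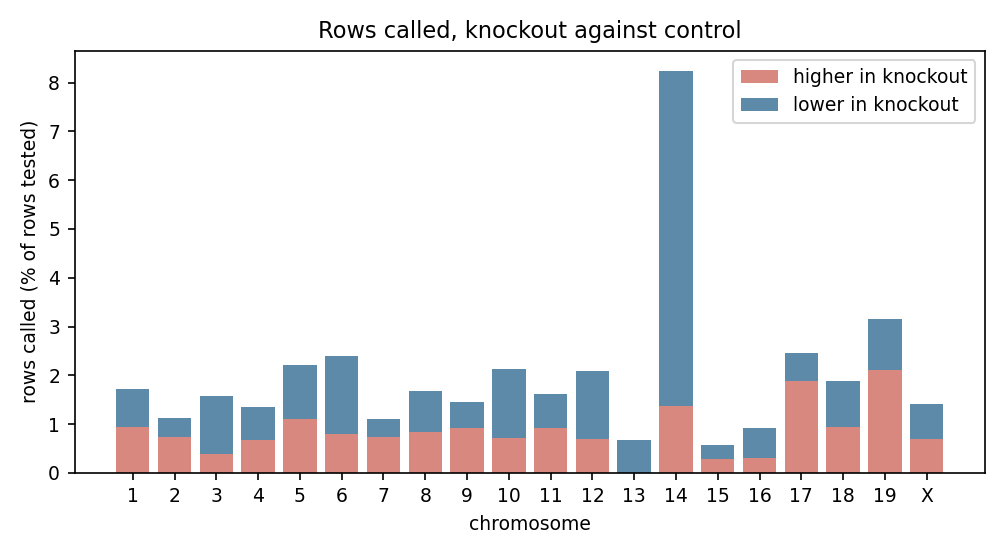
Bars give the percentage of tested rows called on each chromosome, divided into rows higher and lower in knockout. Chromosome 14 reaches 8.24%, mostly rows that are lower, and the other plotted chromosomes (autosomes and X) lie between 0.568 and 3.16%.

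Far from chromosome starts, some rows differed more strongly than any named gene, though the transcripts they count are not established. The row named Spire2 held 980, 879, 1138, 1554 and 847 CPM in knockout replicates 1 to 5 and 24.9 to 39.6 CPM in controls, with a median of 29.98. The log2 change was 5.14 (SE 0.18, adjusted p = 1.5e-14, edgeR), and 5.37 from replicates 1 and 4 alone. The row named Abhd4 held 133, 40.0, 82.1, 203 and 32.1 CPM against 0 to 5.77 CPM in controls (log2 fold change 5.46, SE 0.55, adjusted p = 3.1e-06, edgeR), and the Arhgap30 row 59.5, 10.4, 31.4, 98.7 and 3.601 CPM against 0.541 to 1.87 CPM (5.22, SE 0.70, adjusted p = 0.00015, edgeR). In the Abhd4 and Arhgap30 rows, knockout replicates 1 and 4 were the highest. Transgenic libraries were high in the same 3 rows, with 824 to 1203 CPM in the Spire2 row, 37.7 to 164 in the Abhd4 row and 16.2 to 71.8 in the Arhgap30 row. The log2 difference of transgenic over knockout was -0.10, 0.22 and 0.32 in these rows, with adjusted p of 0.72, 0.79 and 0.74 (edgeR).

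Among rows that were lower, the row named Dguok held 1.07, 1.30, 1.14, 1.12 and 0 CPM in knockout replicates 1 to 5, that is 0 to 4 counts per library. Controls held 13.5 to 24.0 CPM with a median of 15.9, and transgenic libraries 105 to 250 CPM. The log2 change was -4.11 (SE 0.36, adjusted p = 5.5e-07, edgeR). The Prdm1 row held 7.24, 2.60, 13.7, 8.94 and 3.601 CPM against 17.7 to 36.2 CPM in controls (-1.82, SE 0.30, adjusted p = 0.0014, edgeR). It stayed called in each of 29 alternatives, while the Dguok row lost its call in 1, with quality weights (adjusted p = 0.13, limma). The Entpd1 row held 0.804, 2.93, 2.00, 1.68 and 3.601 CPM against 4.597 to 8.52 CPM (-1.55, SE 0.31, adjusted p = 0.010, edgeR), and the Dagla row 5.63, 1.95, 4.28, 2.80 and 0.982 CPM against 6.47 to 12.1 CPM (-1.66, SE 0.32, adjusted p = 0.0059, edgeR). The Entpd1 and Dagla rows each lost their call in 3 of 29 alternatives, the Dagla row among others without replicates 2, 3 and 5 (-1.25, adjusted p = 0.15, edgeR). The groups did not overlap in any of these 4 rows, which was a condition for naming them. Prdm1 is the name of a regulator of effector Tregs and Entpd1 that of an ectoenzyme of Tregs, but 12.4% and 2.71% of their exon bases stayed in register.

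Gene lists were described by counts of rows, since most of their members lie far from a chromosome start. Of 17 tested rows named for genes of the type I interferon response, 5 were higher and 0 lower, with a median log2 fold change of 0.38 against -0.02 over all rows, where 0.881% of all rows were called higher. The Ifit2 row held 227, 739, 590, 236 and 401 CPM in knockout replicates 1 to 5 against 46.5 to 162 CPM in controls (log2 fold change 2.42, SE 0.36, adjusted p = 0.00053, edgeR). Slfn5 and Ifit3 rows were higher by 0.78 and 1.11 (adjusted p = 0.0083 and 0.011, edgeR), without overlap between groups. The Ifit2 and Ifit3 rows are named for neighbouring genes, at chr19:34550694-34576419 and chr19:34583531-34588731, where the estimated shift is 14.2 kb. None of their exon bases stayed in register, and whether the 5 called rows of this list count separate transcripts was not tested. Transgenic libraries held 228 to 842 CPM in the Ifit2 row, 27.3 to 45.8 in the Ifit3 row and 878 to 1506 in the Slfn5 row, with log2 differences of transgenic over knockout of 0.03, 0.63 and -0.18 (adjusted p = 0.97, 0.070 and 0.50, edgeR). The other 2, named after their values were seen, were the Trim30a row (1.64, adjusted p = 0.036, edgeR) and the Ifit1bl1 row (1.34, adjusted p = 0.048, edgeR). From replicates 1 and 4 alone, 0 of the 17 rows were called, with a median of 0.28, and the Ifit2 row was higher by 1.502 (adjusted p = 0.080, edgeR). Of 15 rows named for the interferon gamma response, 1 was higher, the Gbp8 row (0.66, adjusted p = 0.027, edgeR), a call that was lost in 11 of 29 alternatives (adjusted p = 0.42 from replicates 1 and 4 alone).

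Rows named for Treg identity, 13 in number, had 1 higher (Ikzf2, 0.53) and 2 lower (Entpd1, given above, and Izumo1r, -0.35), with a median of -0.02. Over all rows 0.881% were called higher and 1.01% lower. Both Ikzf2 and Izumo1r lost their calls in many alternatives, 18 and 21 of 29. Of 10 rows named for effector Tregs, 1 was lower (Prdm1) and the median was -0.34. Among 16 rows of NF-kB subunits and IkB proteins, 0 were called and the median was 0.03 (edgeR), and 0 of 17 NF-kB target rows were called, with a median of -0.09. The lists of T cell receptor signalling (18 rows tested), proliferation (11) and glycolysis (11) likewise held 0 called rows, with medians of -0.11, 0.05 and -0.02. Of 22 rows named for chromatin regulators 1 was lower, the Hdac9 row, with 0 to 0.559 CPM in knockout and 2.16 to 5.90 CPM in control libraries. No knockout library had more than 2 counts there. Transgenic libraries held 7.92 to 14.9 CPM, and the row passed the count filter only with them. The replicate block fit, which left them out, did not test the Hdac9 row. The call was lost in 2 of the 27 alternatives that tested this row. These were the fit without replicates 2, 3 and 5 (adjusted p = 0.053, edgeR) and that with quality weights (adjusted p = 0.080, limma). In the fit of all 17 libraries 22.4% of all rows had an unadjusted p under 0.05, and DESeq2 called 305 rows higher and 268 lower.

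Markers of other cell types could be read only as rows, except Xbp1, which the plasma cell list holds. Summed plasma cell rows held 344 to 670 CPM in knockout and 287 to 342 CPM in controls, without overlap. Xbp1 alone held 340 to 655 CPM of this in knockout, and 0 of 2 tested plasma cell rows were called. The sums of CD8 T cell, neutrophil, erythroid and platelet rows overlapped between the groups. Summed B cell rows held 171 to 259 CPM in knockout and 216 to 304 CPM in control libraries, with Blk, Cd79b and Ebf1 at 0 in every library, and 0 of 2 tested rows were called. Summed monocyte and macrophage rows held 55.7 to 83.4 CPM in knockout and 64.0 to 84.6 CPM in controls. Summed NK cell rows held 23.1 to 32.2 CPM against 17.2 to 23.0 CPM. Without the Tyrobp row, whose moved exons lie in part on Nfkbid, the ranges were 8.58 to 21.5 and 7.36 to 11.3 CPM and overlapped. Dendritic cell rows held 82.3 to 92.7 CPM against 60.6 to 80.4 CPM, again without overlap, and 1 of 2 tested rows was called, the Flt3 row (1.40, adjusted p = 0.041, edgeR), where 1.89% of all rows were called. That call was lost in 15 of 29 alternatives, with an adjusted p of 0.22 from replicates 1 and 4 alone. Because these rows lie away from chromosome starts, the content of the sorted cells beyond Foxp3 could not be checked, and its part in the results was not tested. In bulk RNA, fewer cells of a type and less RNA per cell cannot be told apart.

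Few calls held across the fits. Rows called on all libraries, without replicates 2, 3 and 5, and with sample quality weights in limma numbered 8 higher and 15 lower. Of the lower ones, 7 lay at the start of chromosome 14. Rows called in every one of the 29 alternatives numbered 4 higher and 11 lower. Penk was the only named gene near a chromosome start among them, beside the rows named Spire2, Abhd4, Prdm1 and Slamf1 and rows with predicted or clone names. The Slamf1 row, named after its value was seen, had a log2 fold change of -0.68.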

How the data were processed

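Poly(A) RNA of sorted splenic Foxp3-GFP+ Tregs was sequenced to about 27 M reads of 67 bp, each with a molecular identifier of 9 bp, per the labels' protocols. What the authors deposited are expected counts of each gene in 17 libraries. Reads were aligned with Bowtie2 to GRCm38, per the submitters' processing notes. The series text names Ensembl 102 transcripts and edgeR. Use of the identifiers against duplicate reads is not stated, so floors of 3 counts are limits of counting alone. The deposited file lists 47643 rows. Of these, 47224 matched a GENCODE M21 gene on GRCm38. Fractional values made up 5.87% of the table.

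After rounding, counts were tested with edgeR 4.0.16 (R 4.3.3) by its quasi-likelihood test, with TMM factors, filterByExpr on the groups, all 17 libraries in 1 fit, and Benjamini-Hochberg adjustment at 0.05. The step was run on simulated counts that had the same spread in every group. It therefore does not speak to the wider spread of the knockout libraries. Single values per library were compared by exact permutation with scipy 1.17.1. Alternatives used RLE and upper quartile factors, other filters, DESeq2 1.42.0, limma 3.58.1 voom, a fit of the 11 libraries, a replicate block, unrounded counts and libraries left out. CPM values are scaled by TMM-adjusted library sizes.

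The register of rows was estimated from the mean of all libraries, by scanning 37 slopes. Named were Nfkbid and Foxp3, called genes near chromosome starts (12 highest and 12 lowest), the 4 highest and 4 lowest other rows without overlap and with a mean log2 CPM of 3 or more, and up to 3 called members of each of 31 lists, or the member with the smallest p. Predicted and clone-named rows were counted only. The members, lists and rules were chosen with earlier results of these data known. No 2 libraries within the knockout group or within the control group agreed within sampling noise, and other pairs were not compared. Library totals were 3.13 to 4.73 M counts.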

Additional observations from a re-analysis of the deposited data

Results flagged for a closer look

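Of 62 groups of values examined in knockout and control libraries, 5 held 1 library far from the rest of its group. The nominal rate of the rule is about 1 in 20, and no rate was estimated from these data. Control replicate 1 had a total of 4.73 M counts, above all other controls. Control replicate 2 was low for Akap12, at 53.7 CPM, which was still above every knockout library. In the Abhd4 row control replicate 4 was high, at 5.77 CPM, below every knockout library. Knockout replicate 5 was at 0 in the Dguok row, and knockout replicate 3 was high in the Gbp8 row, at 125 CPM.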

How the results depend on the processing

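Of the 29 alternatives, RLE and upper quartile factors, a mean count of at least 10 and unrounded counts kept the numbers of called rows within 1.5 times. Rows called higher and lower were 223 and 348 without a filter on low counts, 305 and 268 with DESeq2, 30 and 28 with limma voom and quality weights, and 34 and 42 in a fit of the 2 groups. Limma voom called 50 higher and 85 lower. Leaving out 1 library at a time gave 29 to 592 higher and 55 to 532 lower, with the extremes without knockout replicates 5 and 4 for higher rows and without control replicate 1 and knockout replicate 4 for lower rows. Leaving out knockout replicate 2, 3 or 5, or control replicate 1, 3, 4, 5 or 6, gave 29 to 50 higher rows, and knockout replicate 3 or 5, or control replicate 1, 3 or 5, gave 55 to 61 lower rows. Without knockout replicate 1 the counts were 448 and 358, and without transgenic replicate 1 they were 289 and 229. Without knockout replicates 2, 3 and 5 they were 10 and 33, and without knockout replicates 1 and 4, chosen after seeing the data, 1534 and 1785. The cause was not tested. In the same test without replicates 2, 3 and 5, the mitochondrial share differed by 0.873 percentage points and rows detected by -957, in a design of 2 against 6 whose smallest p is 0.0714. Replicate numbers showed no clear pairing of the samples. Deviations of same-numbered libraries correlated at -0.14 to 0.18, and 1 of 5 knockout libraries correlated best with its own number. Given the wide spread of the knockout libraries, these correlations cannot exclude a pairing. A fit with a replicate block called 16 higher and 22 lower. Of 2222 values for named rows under alternatives, 1966 kept their side of the threshold, 158 lost a call, 98 gained one and 0 called values changed sign. Rows under about 3 counts per library cannot show a difference at this depth.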

Other observations

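Several values lay outside the comparisons above. In the deposited table the identifiers in the headers formed 1 run for the knockout libraries and 3 runs for the control libraries. Those of the transgenic libraries formed 1 run with a gap in it, and the meaning of the identifiers is not stated. No control identifier fell within the span of the knockout identifiers, whereas those of control replicates 1 and 2 fell within the transgenic span. Anything the identifiers mark therefore cannot be told apart from knockout against control. Sample quality weights estimated by limma were 0.298 to 0.723 in knockout libraries and 0.918 to 2.01 in controls, so each knockout library was weighted below each control library.

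Among nuclear long noncoding RNAs near the start of chromosome 19, Malat1 and Neat1 kept 82.0% and 93.9% of exon bases in register. Malat1 had a log2 fold change of 0.19 (SE 0.14) and Neat1 of 0.05 (SE 0.16), and neither passed the test. Osm, a cytokine related to Lif, lies beside it on chromosome 11 and had 142, 204, 148, 150 and 206 CPM in knockout replicates 1 to 5, against 110 to 154 CPM in controls. Its groups overlapped, with a log2 change of 0.42 (SE 0.15, adjusted p = 0.12, edgeR). Klf6, an immediate early transcription factor, had 0.06 (SE 0.15), and Pfkp, a glycolytic phosphofructokinase, had -0.15 (SE 0.10). Osm, Klf6 and Pfkp kept 47.8, 47.3 and 48.6% of exon bases in register.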
